A study of Mus musculus with 12 samples.

Results

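Integrins and laminins are the receptors and the sheet-forming ligands through which cells hold on to the basement membrane, and their subunit genes are described here in mouse liver. The members are the rows of the deposited count table whose symbols name an integrin alpha or beta subunit or a laminin alpha, beta or gamma chain. There are 37 of them among 25540 rows: 18 integrin alpha, 8 integrin beta and 11 laminin genes. RNA was sequenced from livers of BALB/c mice in 4 groups of 3 libraries, all injected with what the labels call iExos, and the series title names STAT3 as the target and liver fibrosis as the disease. The siSTAT3 group received iExos loaded with an siRNA (a short RNA that directs cleavage of a matching mRNA) against STAT3, and its control is siCntrl. The mASO STAT3 group received iExos with an agent that the labels call mASO and do not spell out, and its control is mASO Scrbl. The age of the mice and the way the livers were made fibrotic were not stated in the sources used here. No label ties the 3 libraries of a group to separate animals, and the p-values below therefore reflect how far these libraries differ, which may be technical.

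Each integrin is a pair of 1 alpha and 1 beta chain, and the pairing sets both the ligand and the cell type. Leukocytes use beta2 chains to bind ICAMs and complement, epithelial cells use alpha3 and alpha6 chains to bind laminin, and stellate cells and other mesenchymal cells use alpha1, alpha5, alpha8 and alpha11 chains to bind collagens, fibronectin and nephronectin. The beta1 chain partners most of these alpha chains, and alphav integrins also release active TGF-beta from its latent complex. Each laminin is a cross of an alpha, a beta and a gamma chain. In liver, bile ducts and vessels have a laminin-rich basement membrane, healthy sinusoids have little of it, and laminin deposition along sinusoids is a known feature of fibrosis. On this background the 37 genes were placed in classes by the cells known mainly to express them: leukocyte (8 genes), platelet (2), epithelial (10), mesenchymal (8) and broad (9), the last for subunits of many cell types. Several members are also expressed outside their class, and in bulk liver fewer cells of a type and less RNA per cell cannot be told apart.

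The promoters of 4 members are shown because they stand for the contrasts described below: Itgam fell while its neighbour Itgax did not pass the test, Itgb1 is the most abundant subunit and fell, and Lamb2 holds the letters of a STAT site and did not pass. On chromosome 7 no other coding gene lies between Itgam and Itgax, or between Itgax and Itgad, and 35 coding genes lie between Itgal and Itgam. The sequences are the 250 bases before the annotated start in RefSeq (GRCm38.p6), read 5′ to 3′ on the plus strand, at chr7:128062390-128062639 for Itgam, chr7:128129300-128129549 for Itgax, chr8:128685404-128685653 for Itgb1 and chr9:108479612-108479861 for Lamb2. Capitals mark matches, on either strand, to TTCNNNGAA (bound by STAT proteins), TGANTCA (AP-1), GAGGAAG (the PU.1 type of ETS site) or GGAATG (TEAD), none of which overlap here.
Itgam: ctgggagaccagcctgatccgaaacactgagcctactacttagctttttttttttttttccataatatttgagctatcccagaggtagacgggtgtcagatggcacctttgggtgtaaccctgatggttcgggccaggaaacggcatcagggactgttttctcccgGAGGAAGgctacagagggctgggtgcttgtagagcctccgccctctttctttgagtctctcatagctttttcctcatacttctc
Itgax: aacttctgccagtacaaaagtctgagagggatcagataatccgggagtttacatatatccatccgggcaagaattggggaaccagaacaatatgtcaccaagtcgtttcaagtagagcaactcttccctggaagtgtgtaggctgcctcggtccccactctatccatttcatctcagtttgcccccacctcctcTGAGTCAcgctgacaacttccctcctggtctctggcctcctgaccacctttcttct
Itgb1: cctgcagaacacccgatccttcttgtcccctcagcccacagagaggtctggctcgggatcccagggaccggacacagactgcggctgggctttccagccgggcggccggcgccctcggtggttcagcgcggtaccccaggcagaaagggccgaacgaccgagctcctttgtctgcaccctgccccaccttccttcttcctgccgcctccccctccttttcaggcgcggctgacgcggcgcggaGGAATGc
Lamb2: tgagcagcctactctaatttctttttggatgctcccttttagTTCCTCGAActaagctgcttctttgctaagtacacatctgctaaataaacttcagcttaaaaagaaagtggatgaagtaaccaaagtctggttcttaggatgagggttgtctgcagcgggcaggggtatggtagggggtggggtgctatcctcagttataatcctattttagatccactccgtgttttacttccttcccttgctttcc
Itgam holds GAGGAAG, Itgax holds TGANTCA, Itgb1 holds GGAATG and Lamb2 holds TTCNNNGAA. RefSeq windows were found for 23 of the 37 members, 26 windows in all. Of these 26 windows, 2 held TTCNNNGAA (Itga10 and Lamb2), against 7.02% of 32851 windows of all genes, 1 held TGANTCA, against 6.75%, 7 held GAGGAAG, against 10.6%, and 3 held GGAATG, against 12.6%. A match is a run of letters and not a measured binding site.

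Library totals ran from 39844158 to 67791159 counts. Levels are given as CPM, counts-per-million of the library total after TMM scaling, which sets the libraries level on their middle genes. The TMM factors were 0.804 to 0.901 in the 6 libraries of the STAT3 groups and 1.11 to 1.27 in the 6 control libraries. The level of Stat3 mRNA was 88.2 to 122 CPM in the STAT3 groups and 90 to 121 CPM in the control groups, and these ranges overlap almost fully. Of 7 hepatocyte markers, 5 rose in the siRNA arm and 7 in the mASO arm, and they summed to 129000.0 to 142100.0 CPM in siSTAT3 livers, against 47730.0 to 84610.0 CPM in siCntrl livers, and to 114800.0 to 155400.0 CPM in mASO STAT3 livers, against 54530.0 to 84130.0 CPM in mASO Scrbl livers. Of all genes tested, 22.4% rose and 23.4% fell in the siRNA arm, and 21.3% rose and 22.5% fell in the mASO arm. The counts of every marker list below stand beside these shares. The members together took 0.0355 to 0.0474% of all counts in the STAT3 groups and 0.102 to 0.1203% in the control groups. This share is relative to library totals and has no TMM scaling. With library totals the median log2 fold change of all genes was -0.53 in the siRNA arm and -0.63 in the mASO arm, so lower values with this scaling were common among all genes. The most abundant members, Itgb1 and Itgb5, were then at -1.66 and -0.86 (siRNA arm) and at -1.55 and -0.76 (mASO arm). How much of the lower share is common to all genes was not tested.

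Integrin and laminin genes fell more often than they rose in both STAT3 groups relative to their controls. In siSTAT3 against siCntrl livers, 23 of the 35 members tested fell and 0 rose, at an adjusted p under 0.05 in edgeR's quasi-likelihood test. By unadjusted p under 0.05 the number in either direction was 25, of which Lama1 alone was higher, and 1 member was called higher by DESeq2's Wald test and 0 by limma voom. Among all 15720 genes tested in this contrast, 23.4% fell and 22.4% rose. In mASO STAT3 against mASO Scrbl livers, 17 members fell and 2 rose, against 22.5% of all genes that fell and 21.3% that rose. The median log2 fold change of the tested members was -1.09 (siRNA arm) and -0.67 (mASO arm), where the medians of all genes were -0.04 and -0.05. With scaling by library totals in place of TMM, the medians of all genes were -0.53 and -0.63. The members then split into 0 higher and 27 lower in the siRNA arm and 0 higher and 26 lower in the mASO arm, and all genes into 1655 higher and 7266 lower, and 1525 higher and 7939 lower. With TMM all genes split into 3515 higher and 3675 lower in the siRNA arm, and 3344 higher and 3542 lower in the mASO arm.

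Itgad and Itgb6 had too few counts to be tested. Itga2 reached the minimum count in 0 of the 6 libraries of the STAT3 groups and in 5 of the 6 control libraries, so it could be tested only because it is high in controls. Without Itga2, 22 and 16 members fell of 34 tested. In the same way Itga11 reached the minimum in 1 STAT3-group library and 6 control libraries, and Itgb8 in 2 and 6. The counts above are therefore a description of the members that could be tested. In all, 17 members fell in both arms, 6 fell in the siRNA arm and did not pass in the mASO arm, 2 rose in the mASO arm and did not pass in the siRNA arm, and 10 passed in neither. Among all genes tested, 23.4% fell in the siRNA arm and 22.5% in the mASO arm. The share of all genes that fell in both was not computed, so these crossed counts are not set apart from all genes.

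**Figure D1:**
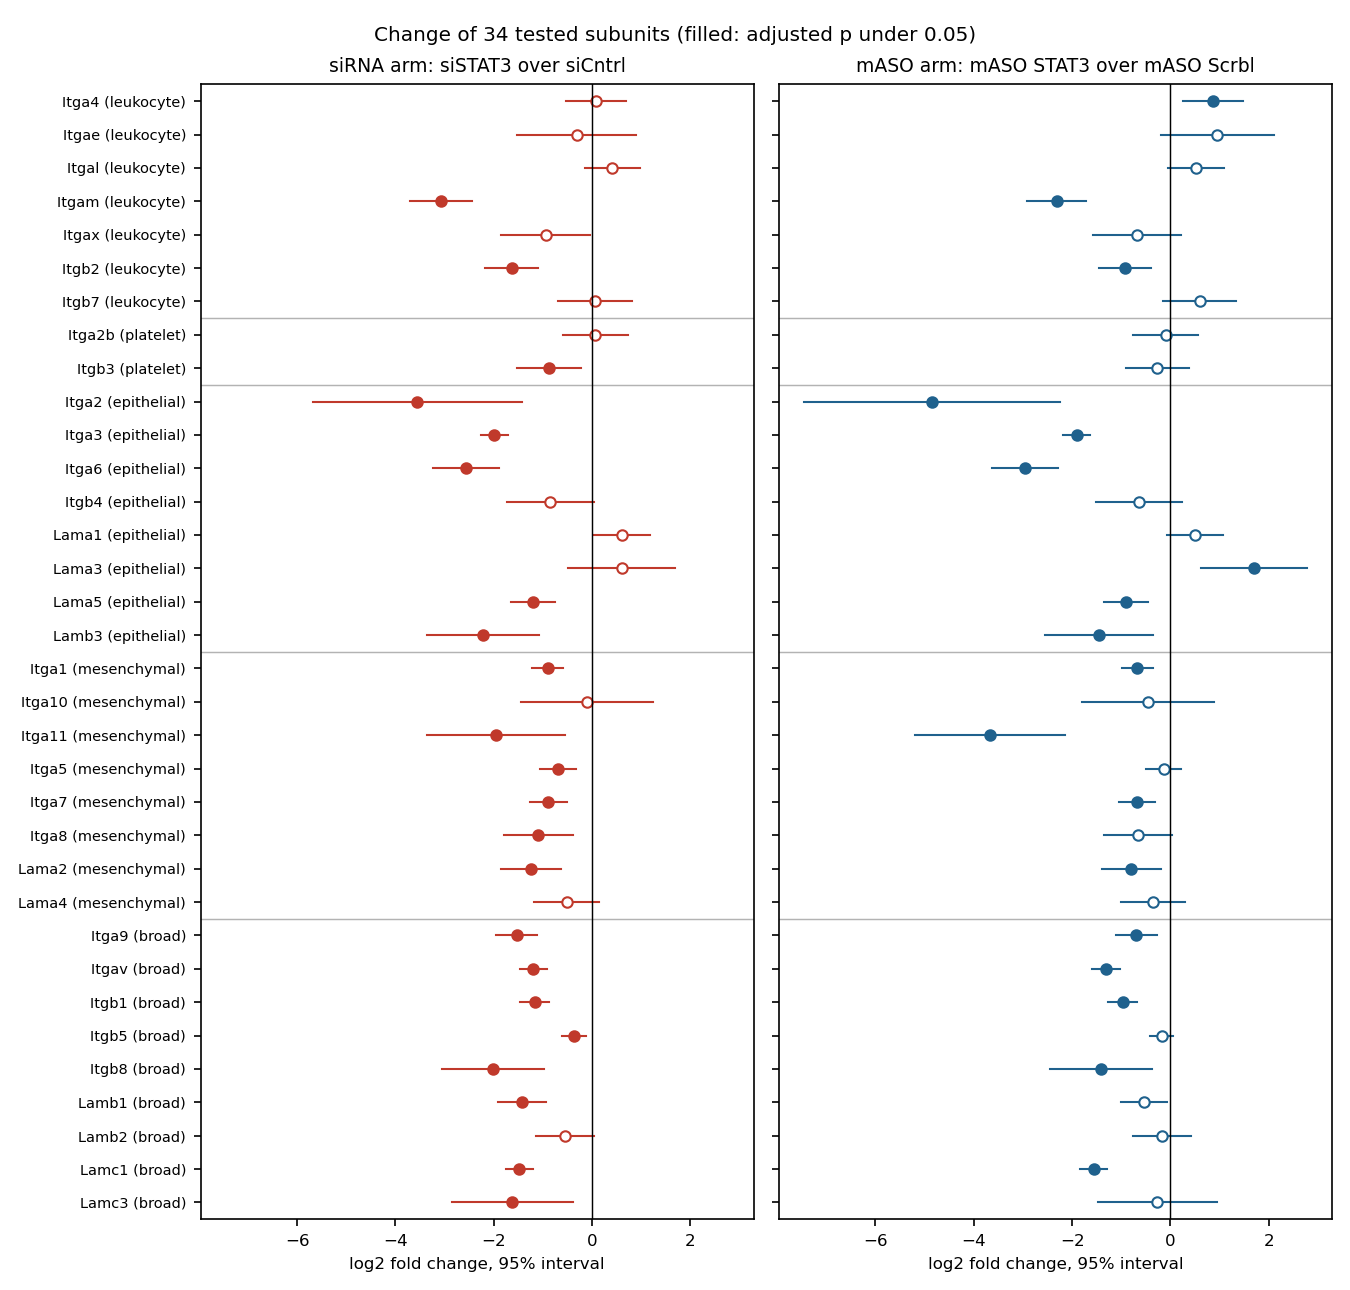
Log2 fold change (x axis) of 34 of the 35 tested subunits, listed by class down the y axis, in siSTAT3 over siCntrl livers (left) and mASO STAT3 over mASO Scrbl livers (right). Points are fitted values, lines 95% intervals, and filled points have an adjusted p under 0.05; most filled points lie left of 0, and Itga4 and Lama3 lie right of it in the mASO arm.

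The classes differed in how many of their members fell, though this difference was not tested. In the siRNA arm, 2 of 7 tested leukocyte subunits fell, against 6 of 9 epithelial, 6 of 8 mesenchymal, 8 of 9 broad and 1 of 2 platelet ones. Among all genes tested, 23.4% fell in this arm, and the leukocyte count is near that share. The class medians of log2 fold change there were -0.31 for leukocyte, -1.58 for epithelial, -0.90 for mesenchymal and -1.43 for broad subunits. In the mASO arm, 2 of 7 leukocyte subunits fell and 1 rose, 6 of 9 epithelial fell and 1 rose, 4 of 8 mesenchymal fell and 5 of 9 broad fell. Of all genes tested, 22.5% fell and 21.3% rose in the mASO arm. The class medians were 0.52 for leukocyte, -1.45 for epithelial, -0.67 for mesenchymal and -0.69 for broad subunits. Itga2 (epithelial), Itga11 (mesenchymal) and Itgb8 (broad) reached the minimum count mainly in control libraries and fell in both arms. They are part of these class counts and medians, which therefore describe only the members that could be tested.

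Levels were compared between genes per kb of exon, using the union of annotated exons in GENCODE vM21. Itgb1, the shared beta chain, Itgb5, a partner of alphav, and Itga5, the fibronectin receptor chain, held the first 3 places in all 4 groups. Itgb1 averaged 35.7 and 38.9 CPM per kb in siSTAT3 and mASO STAT3 livers, against 80.2 and 76.3 CPM per kb in siCntrl and mASO Scrbl livers. Itgb5 averaged 28.7 and 28.3 CPM per kb in the same STAT3 groups, against 37.1 and 32.02 CPM per kb in the controls. So Itgb1 and Itgb5 were closer together in level in the STAT3 groups than in the controls. Itga3 stood at 1.57 and 1.83 CPM per kb in the STAT3 groups, against 6.24 and 6.88 CPM per kb in the controls, where it held place 6 in siCntrl and place 5 in mASO Scrbl livers. Itgad, an alpha chain of some macrophages, held the last place in siSTAT3 and both control groups.

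Among leukocyte subunits, Itgam fell and Itgal did not, although both pair with the same beta chain. Itgam encodes alphaM (CD11b), which with beta2 forms the complement receptor of neutrophils, monocytes and macrophages. Its levels were 2.14, 1.11 and 1.63 CPM in siSTAT3 livers, against 12.3, 16.3 and 12.6 CPM in siCntrl livers. They were 1.698, 2.13 and 1.09 CPM in mASO STAT3 livers, against 9.34, 6.697 and 8.42 CPM in mASO Scrbl livers. Every library of a STAT3 group was below every library of its control. It came to a log2 fold change of -3.07 ± 0.29 (SE, siRNA arm, adjusted p = 2.51e-06) and -2.31 ± 0.28 (SE, mASO arm, adjusted p = 2.2e-05), and both calls held under every alternative tried.

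Itgb2 encodes that shared beta2 chain (CD18). Its levels were 8.34, 5.53 and 10.4 CPM in siSTAT3 livers, against 18.2, 31.3 and 25.6 CPM in siCntrl livers. Itgb2 had 9.82, 11.7 and 8.49 CPM in mASO STAT3 livers, against 22.6, 15.04 and 19.6 CPM in mASO Scrbl livers. The groups did not overlap in either arm, with the highest value in siCntrl replicate 2. It came to a log2 fold change of -1.63 ± 0.25 (SE, siRNA arm, adjusted p = 0.000153) and -0.93 ± 0.25 (SE, mASO arm, adjusted p = 0.00742).

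Itgal encodes alphaL (CD11a), the ICAM receptor chain of lymphocytes and other leukocytes. Its levels were 12.2, 11.01 and 16.6 CPM in siSTAT3 livers, against 6.904, 13.7 and 9.41 CPM in siCntrl livers. Itgal had 11.2, 13.7 and 11.2 CPM in mASO STAT3 livers, against 11.2, 6.28 and 7.74 CPM in mASO Scrbl livers. The groups overlapped in the siRNA arm, and in the mASO arm the lowest treated library and the highest control library were at about the same value. The log2 fold changes, 0.41 (siRNA arm, 95% interval -0.15 to 0.97, adjusted p = 0.221) and 0.52 (mASO arm, 95% interval -0.04 to 1.08, adjusted p = 0.123), did not pass the test. The sign of both values turned with scaling by library totals, to -0.11 and -0.05. Without mASO Scrbl replicate 1, Itgal passed as higher in the mASO arm, at 0.78 with an adjusted p of 0.0398, and without mASO Scrbl replicate 2 the value was 0.345 and did not pass.

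Itgax encodes alphaX (CD11c), the chain best known from dendritic cells and some macrophages. Its levels were 4.11, 9.57 and 5.099 CPM in siSTAT3 livers, against 7.04, 18.4 and 10.8 CPM in siCntrl livers. Itgax had 6.82, 5.34 and 2.596 CPM in mASO STAT3 livers, against 6.79, 6.92 and 9.94 CPM in mASO Scrbl livers. Replicate 2 was the highest library in both siSTAT3 and siCntrl livers, and the groups overlapped in both arms. The log2 fold changes of -0.95 (siRNA arm, 95% interval -1.85 to -0.05, adjusted p = 0.0799) and -0.68 (mASO arm, 95% interval -1.58 to 0.22, adjusted p = 0.205) did not pass. The siRNA value was -0.52 (adjusted p = 0.351) without siCntrl replicate 2, the highest library. It passed without siSTAT3 replicate 2 (-1.39, adjusted p = 0.0281), without siCntrl replicate 1 (-1.22, adjusted p = 0.0337) and by DESeq2's Wald test (adjusted p = 0.0413). With library totals Itgax passed as lower in both arms, at -1.48 (siRNA arm, adjusted p = 0.0122) and -1.25 (mASO arm, adjusted p = 0.0259).

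Itga4, the alpha4 chain by which lymphocytes and monocytes bind VCAM1 and fibronectin, was higher in the mASO arm. Its levels there were 9.18, 7.78 and 8.13 CPM in mASO STAT3 livers, against 4.19, 4.77 and 4.78 CPM in mASO Scrbl livers, with no overlap. In the siRNA arm they were 4.81, 10.1 and 5.62 CPM in siSTAT3 livers, against 4.37, 8.67 and 6.41 CPM in siCntrl livers, with full overlap. It came to a log2 fold change of 0.87 ± 0.28 (SE, mASO arm, adjusted p = 0.0227) and 0.08 ± 0.28 (SE, siRNA arm, adjusted p = 0.842), and the difference between the arms did not pass the test. The mASO call ended without mASO STAT3 replicate 1 (0.79, adjusted p = 0.0694), without mASO Scrbl replicate 1 (0.80, adjusted p = 0.0722), without mASO Scrbl replicate 2 (0.90, adjusted p = 0.0504) and with library totals (0.29, adjusted p = 0.421).

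Itgb7, a partner of alpha4 and alphaE on gut-homing lymphocytes, had log2 fold changes of 0.06 (siRNA arm, 95% interval -0.69 to 0.80, adjusted p = 0.905) and 0.59 (mASO arm, 95% interval -0.15 to 1.33, adjusted p = 0.182). Itgae, the alphaE chain (CD103) that binds E-cadherin, had -0.31 (siRNA arm, 95% interval -1.53 to 0.90, adjusted p = 0.678) and 0.95 (mASO arm, 95% interval -0.20 to 2.10, adjusted p = 0.168), with levels under 1 CPM in all 12 libraries. Neither passed in either arm. Itgb7 lay between 1.64 and 3.89 CPM in the 6 STAT3-group libraries, against 1.54 and 3.29 CPM in the 6 control libraries, and Itgae lay between 0.123 and 0.951 CPM in the 6 STAT3-group libraries, against 0.206 and 0.364 CPM in the 6 control libraries, with overlap. Itgad had 0 counts in the 3 siSTAT3 libraries, against 3 counts in siCntrl, and 1 count in mASO STAT3, against 4 counts in mASO Scrbl.

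General leukocyte markers fell with Itgam and Itgb2 in the siRNA arm, while the other 5 tested leukocyte subunits did not pass there. Of 7 such markers (Ptprc and others), 6 fell in the siRNA arm and 1 fell in the mASO arm. Their summed level was 91.5 to 117 CPM in siSTAT3 livers, against 115 to 305 CPM in siCntrl livers, and 101 to 127 CPM in mASO STAT3 livers, against 97.4 to 149 CPM in mASO Scrbl livers, so the ranges overlapped in both arms. Of 7 neutrophil markers, 4 fell in the siRNA arm and 5 in the mASO arm, with sums of 14.1 to 44.4 CPM in siSTAT3 livers, against 48.7 to 101 CPM in siCntrl livers, and of 19.5 to 19.6 CPM in mASO STAT3 livers, against 35.01 to 79.3 CPM in mASO Scrbl livers, and Ly6g, a defining neutrophil marker, had 78 counts over all 12 libraries. Of 7 monocyte and macrophage markers, 4 fell in the siRNA arm, while 1 rose and 1 fell in the mASO arm, with sums of 361 to 443 CPM in siSTAT3 livers, against 348 to 782 CPM in siCntrl livers, and of 369.7 to 444 CPM in mASO STAT3 livers, against 325 to 489.6 CPM in mASO Scrbl livers. Of 6 tested T and NK cell markers, 1 rose and 1 fell in the siRNA arm and 3 rose in the mASO arm, with sums of 2.597 to 5.19 CPM in siSTAT3 livers, against 1.91 to 5.04 CPM in siCntrl livers, and of 4.83 to 5.15 CPM in mASO STAT3 livers, against 1.74 to 3.13 CPM in mASO Scrbl livers. Of 5 B cell markers, 3 rose in the mASO arm, and the list's siRNA arm median was 0.67 on the log2 scale, with sums of 7.25 to 10.7 CPM in siSTAT3 livers, against 5.16 to 11.3 CPM in siCntrl livers, and of 7.97 to 16.7 CPM in mASO STAT3 livers, against 3.86 to 5.82 CPM in mASO Scrbl livers. The part of these cells in the change of Itgam, Itgb2 and Itga4 was not tested.

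**Figure D2:**
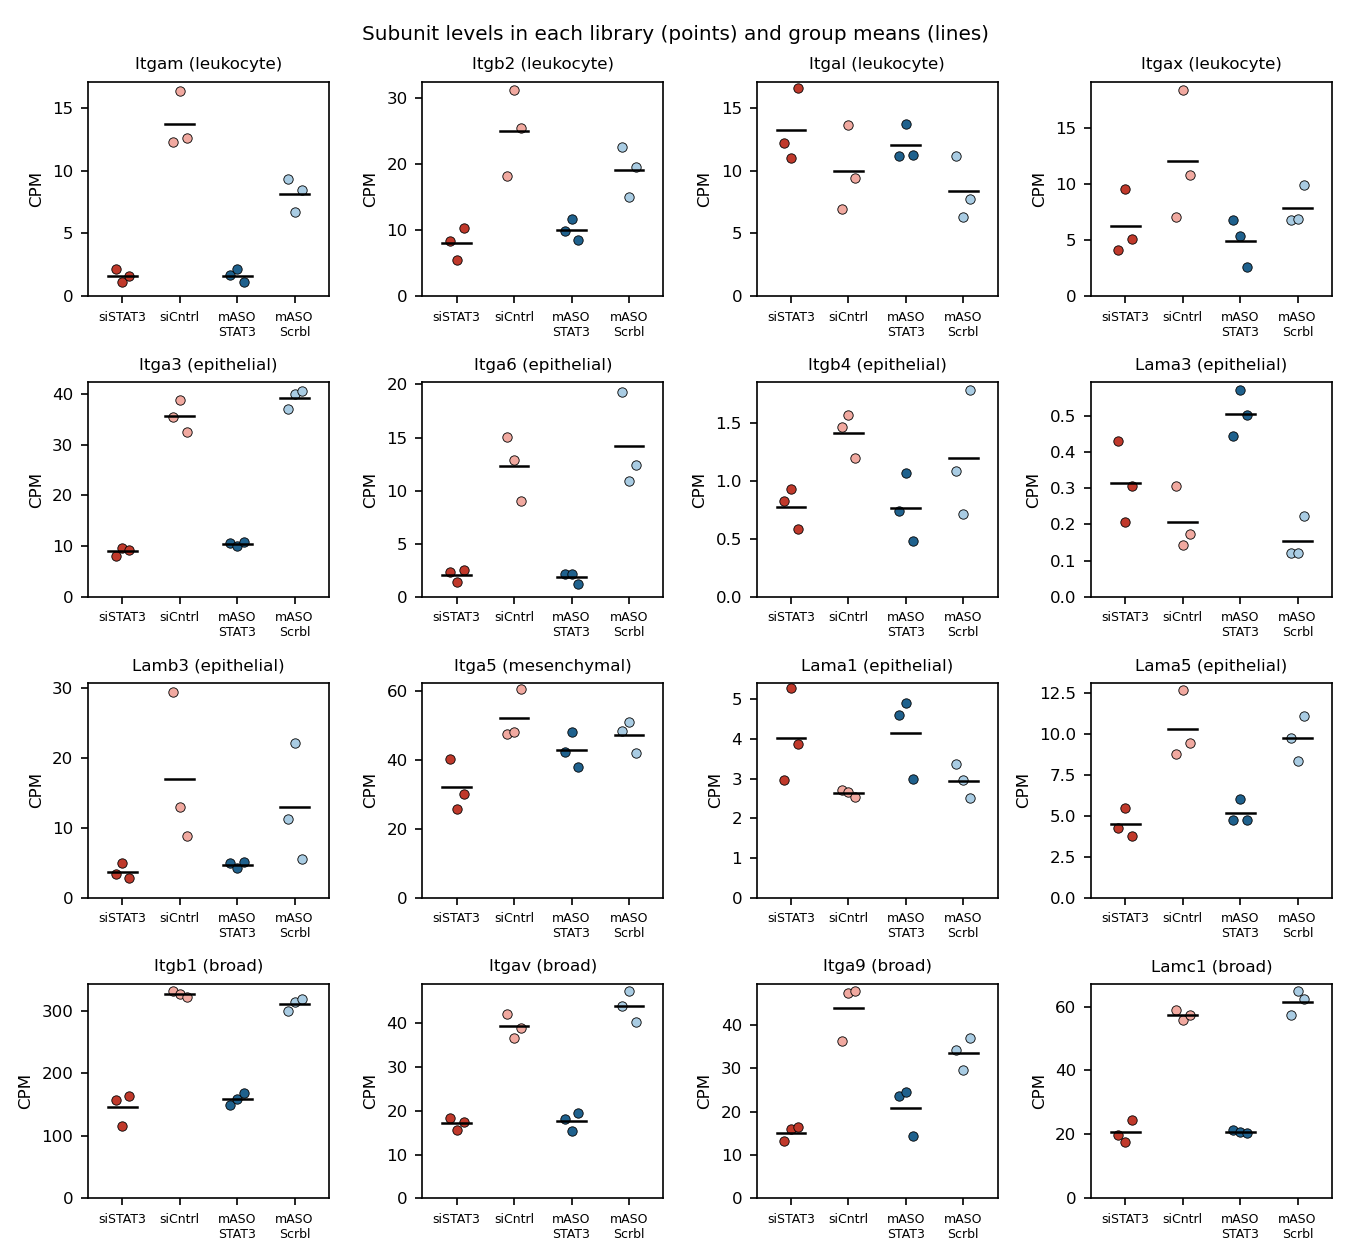
Level (y axis, CPM, starting at 0) of 16 subunits in each library of siSTAT3, siCntrl, mASO STAT3 and mASO Scrbl livers (x axis); points are libraries and lines group means. Itgam, Itga3, Itga6, Itgb1, Itgav and Lamc1 show separate groups in both arms, while Itgal, Lama1 and Itgb4 show overlapping or touching groups in at least 1 arm.

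The platelet integrin is made of Itga2b and Itgb3, and Itgb3 also pairs with alphav on other cells. Itga2b did not pass in either arm, with log2 fold changes of 0.06 (siRNA arm, 95% interval -0.59 to 0.72, adjusted p = 0.882) and -0.09 (mASO arm, 95% interval -0.75 to 0.56, adjusted p = 0.828). It lay between 2.84 and 6.56 CPM in the 6 STAT3-group libraries, against 2.98 and 5.04 CPM in the 6 control libraries, with overlap. Itgb3 was 3.27, 3.16 and 1.84 CPM in siSTAT3 livers, against 4.04, 4.85 and 6.34 CPM in siCntrl livers, without overlap, and fell at -0.88 ± 0.30 (SE, siRNA arm, adjusted p = 0.0292). That call ended without siSTAT3 replicate 3 (-0.66, adjusted p = 0.110), without siCntrl replicate 3 (-0.68, adjusted p = 0.118) and without siCntrl replicate 2 (-0.91, adjusted p = 0.0514). In the mASO arm Itgb3 was at -0.27 (95% interval -0.91 to 0.38, adjusted p = 0.498) and did not pass. Of 7 platelet markers 3 could be tested, of which 1 fell and 1 rose in each arm, and Gp6, which defines the lineage, had 9 counts over all 12 libraries. The platelet markers summed to 2.27 to 5.99 CPM in siSTAT3 livers, against 5.52 to 11.3 CPM in siCntrl livers, and to 2.59 to 3.62 CPM in mASO STAT3 livers, against 3.69 to 5.63 CPM in mASO Scrbl livers, and their part was not tested.

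Among epithelial integrins, the laminin-binding chains Itga3 and Itga6 fell in both arms, with larger log2 fold changes than Itgb1. Itga3 encodes alpha3, which with beta1 binds laminins of epithelial basement membranes. Its levels were 8.03, 9.72 and 9.18 CPM in siSTAT3 livers, against 35.5, 38.9 and 32.6 CPM in siCntrl livers. They were 10.6, 9.96 and 10.8 CPM in mASO STAT3 livers, against 37.1, 40 and 40.7 CPM in mASO Scrbl livers. The groups were far apart and narrow in both arms, and the fitted log2 change was -1.99 ± 0.13 (SE, siRNA arm, adjusted p = 9.79e-08) and -1.91 ± 0.12 (SE, mASO arm, adjusted p = 1.22e-07).

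Itga6 encodes alpha6, which pairs with beta1 or, in hemidesmosomes, with beta4. Its levels were 2.301, 1.41 and 2.55 CPM in siSTAT3 livers, against 15.05, 12.9 and 8.99 CPM in siCntrl livers. Itga6 had 2.14, 2.15 and 1.23 CPM in mASO STAT3 livers, against 19.3, 10.95 and 12.4 CPM in mASO Scrbl livers. All libraries of the STAT3 groups were below 3 CPM and all control libraries above 8 CPM. It came to a log2 fold change of -2.56 ± 0.31 (SE, siRNA arm, adjusted p = 2.21e-05) and -2.95 ± 0.32 (SE, mASO arm, adjusted p = 7e-06). Itgb4, the beta4 partner, was 0.822, 0.926 and 0.584 CPM in siSTAT3 livers, against 1.47, 1.56 and 1.19 CPM in siCntrl livers, without overlap. Itgb4 had 0.738, 1.06 and 0.483 CPM in mASO STAT3 livers, against 1.08, 0.714 and 1.78 CPM in mASO Scrbl livers, with overlap. Its log2 fold changes, -0.85 (siRNA arm, 95% interval -1.74 to 0.04, adjusted p = 0.108) and -0.64 (mASO arm, 95% interval -1.52 to 0.24, adjusted p = 0.223), did not pass. With library totals Itgb4 passed as lower, at -1.35 (siRNA arm, adjusted p = 0.0168) and -1.20 (mASO arm, adjusted p = 0.0274).

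Itga2, the alpha2 chain of a collagen and laminin receptor, was near the limit of detection in the STAT3 groups. It had 4 counts in siSTAT3 libraries, against 86 in siCntrl libraries, a ratio of siCntrl over siSTAT3 of 12.05 with a counting interval of 4.54 to 45.2. It had 1 count in mASO STAT3 libraries, against 63 in mASO Scrbl libraries, a ratio of 36.6 with a counting interval of 6.34 to 1470. All 4 counts of the siSTAT3 group were in replicate 1, and the fitted log2 fold change of the siRNA arm was -3.55 with this library and -7.60 without it. Itgb6, the epithelial partner of alphav that activates TGF-beta in injured epithelium, had 1 count in siSTAT3, against 25 in siCntrl (ratio 14.0, 2.29 to 575), and 6 in mASO STAT3, against 41 in mASO Scrbl (ratio 3.97, 1.68 to 11.45). The intervals cover counting error only, and neither ratio is a test between groups.

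Lamb3 and Lama3, the beta3 and alpha3 laminin chains of epithelial anchoring laminins, went opposite ways in the mASO arm. Lamb3 was 3.31, 4.91 and 2.795 CPM in siSTAT3 livers, against 29.4, 12.95 and 8.78 CPM in siCntrl livers. Lamb3 had 4.898, 4.18 and 5.11 CPM in mASO STAT3 livers, against 11.2, 22.1 and 5.51 CPM in mASO Scrbl livers. The control libraries were widely spread, with the highest in siCntrl replicate 1 and mASO Scrbl replicate 2, and all were above the STAT3-group libraries. Lamb3 fell at -2.21 ± 0.52 (SE, siRNA arm, adjusted p = 0.00464) and -1.45 ± 0.51 (SE, mASO arm, adjusted p = 0.0356). The mASO call ended without mASO Scrbl replicate 2, at -0.82 with an adjusted p of 0.173, without mASO STAT3 replicate 1 (adjusted p = 0.0898), 2 (adjusted p = 0.0871) or 3 (adjusted p = 0.0799), without mASO Scrbl replicate 1 (adjusted p = 0.0539), by limma voom (adjusted p = 0.131) and with no filter (adjusted p = 0.102).

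Lama3 rose in the mASO arm at very low levels, with 0.443, 0.5704 and 0.503 CPM in mASO STAT3 livers, against 0.121, 0.121 and 0.223 CPM in mASO Scrbl livers. All mASO STAT3 libraries were above all mASO Scrbl libraries, and the fitted log2 change was 1.69 ± 0.50 (SE, mASO arm, adjusted p = 0.0143). This call ended without mASO Scrbl replicate 1 (1.54, adjusted p = 0.0617), without mASO Scrbl replicate 2 (1.54, adjusted p = 0.0585) and with library totals (1.13, adjusted p = 0.0669). In the siRNA arm Lama3 was 0.431, 0.206 and 0.307 CPM in siSTAT3 livers, against 0.306, 0.144 and 0.172 CPM in siCntrl livers, with overlap, at 0.60 (siRNA arm, 95% interval -0.49 to 1.69, adjusted p = 0.356).

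Lama5 and Lama1 encode alpha chains of laminins with beta1 or beta2 and gamma1, alpha5 in most adult basement membranes and alpha1 mainly in embryonic ones. Lama5 was 4.23, 5.503 and 3.75 CPM in siSTAT3 livers, against 8.81, 12.7 and 9.45 CPM in siCntrl livers. Lama5 had 4.72, 6.06 and 4.77 CPM in mASO STAT3 livers, against 9.77, 8.36 and 11.1 CPM in mASO Scrbl livers. It did not overlap between groups and fell at -1.20 ± 0.21 (SE, siRNA arm, adjusted p = 0.00042) and -0.91 ± 0.21 (SE, mASO arm, adjusted p = 0.00292). Lama1 was 2.96, 5.27 and 3.87 CPM in siSTAT3 livers, against 2.705, 2.67 and 2.53 CPM in siCntrl livers. Lama1 had 4.602, 4.905 and 2.98 CPM in mASO STAT3 livers, against 3.36, 2.97 and 2.501 CPM in mASO Scrbl livers. Its siSTAT3 libraries lay above all siCntrl libraries, but its mASO libraries overlapped. Lama1 did not pass at 0.61 (siRNA arm, 95% interval 0.04 to 1.18, adjusted p = 0.0736) and 0.50 (mASO arm, 95% interval -0.06 to 1.06, adjusted p = 0.139). The siRNA value was 0.37 without siSTAT3 replicate 2, the highest library, and 0.11 (adjusted p = 0.751) with library totals. It passed as higher without siSTAT3 replicate 1 (0.79, adjusted p = 0.0357) and by DESeq2's Wald test (0.62, adjusted p = 0.0436). The mASO value turned to -0.07 with library totals.

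Most tested cholangiocyte markers fell, as most tested epithelial subunits did, but the defining marker Krt19 did not pass. Of 5 tested cholangiocyte markers, 4 fell in the siRNA arm and 3 in the mASO arm, none rose, and their sums were 81.7 to 132 CPM in siSTAT3 livers, against 540.0 to 1376 CPM in siCntrl livers, and 67.8 to 93.4 CPM in mASO STAT3 livers, against 581 to 1322 CPM in mASO Scrbl livers. Most of each sum was Spp1, which mesenchymal cells and macrophages also express and which is on the list of integrin ligands too. Krt19, a defining marker of bile duct cells, was 2.89 ± 1.36 CPM in siSTAT3 livers, against 6.27 ± 4.096 CPM in siCntrl livers, and 4.47 ± 1.21 CPM in mASO STAT3 livers, against 4.89 ± 1.35 CPM in mASO Scrbl livers, and did not pass in either arm. Cftr had 61 counts over all 12 libraries and was not tested. Of 6 mesothelial markers, 1 fell in the siRNA arm, and the list's median log2 fold change was -0.42 in the mASO arm, with sums of 3.32 to 34.1 CPM in siSTAT3 livers, against 19.6 to 62.6 CPM in siCntrl livers, and of 8.98 to 28.99 CPM in mASO STAT3 livers, against 16.7 to 28.02 CPM in mASO Scrbl livers. The part of these cells in the change of Itga3, Itga6 and Lamb3 was not tested.

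Among mesenchymal subunits, 6 of 8 fell in the siRNA arm and 4 of 8 in the mASO arm, with Itga11 in both counts. Itga1, the alpha1 chain that binds collagen IV and is expressed by stellate cells, was 14.5, 11.47 and 15.8 CPM in siSTAT3 livers, against 29.4, 24.5 and 24.2 CPM in siCntrl livers. Itga1 had 15.2, 15.8 and 16.2 CPM in mASO STAT3 livers, against 24.6, 22.3 and 28.2 CPM in mASO Scrbl livers. No library overlapped, and Itga1 fell at -0.90 ± 0.15 (SE, siRNA arm, adjusted p = 0.000264) and -0.67 ± 0.15 (SE, mASO arm, adjusted p = 0.00233). Itga5, the alpha5 chain of the fibronectin receptor, was 40.2, 25.9 and 30.2 CPM in siSTAT3 livers, against 47.6, 48.2 and 60.7 CPM in siCntrl livers. Itga5 had 42.4, 48.2 and 37.98 CPM in mASO STAT3 livers, against 48.5, 51.1 and 42.01 CPM in mASO Scrbl livers. It fell without overlap in the siRNA arm at -0.70 ± 0.17 (SE, adjusted p = 0.00408) and overlapped in the mASO arm at -0.14 (95% interval -0.50 to 0.22, adjusted p = 0.53).

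Itga8, the alpha8 chain that binds nephronectin and marks stellate cells and smooth muscle, was 13.7, 7.82 and 9.83 CPM in siSTAT3 livers, against 22.1, 25.8 and 18.98 CPM in siCntrl livers. Itga8 had 12.2, 16.8 and 12.5 CPM in mASO STAT3 livers, against 15.5, 14.3 and 36.2 CPM in mASO Scrbl livers. The value of mASO Scrbl replicate 3 was more than the others of its group, and mASO groups overlapped. Itga8 fell in the siRNA arm at -1.09 ± 0.32 (SE, adjusted p = 0.0148), a call that ended without siSTAT3 replicate 2 (-0.92, adjusted p = 0.0715) or siCntrl replicate 2 (-0.98, adjusted p = 0.0527). In the mASO arm it was at -0.67 (95% interval -1.36 to 0.03, adjusted p = 0.109) and at -0.11 (adjusted p = 0.741) without mASO Scrbl replicate 3. It passed there without mASO Scrbl replicate 2 (-0.90, adjusted p = 0.0418) and with library totals (-1.23, adjusted p = 0.00788).

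Itga11, the alpha11 chain by which fibroblasts and myofibroblasts bind fibrillar collagen, was 0.164, 0.257 and 0.0307 CPM in siSTAT3 livers, against 0.7197, 0.287 and 0.804 CPM in siCntrl livers. Itga11 had 0.0492, 0.05704 and 0.0805 CPM in mASO STAT3 livers, against 0.437, 0.775 and 1.26 CPM in mASO Scrbl livers. It was low everywhere and lower in every STAT3-group library than in any control library of its arm. It fell at -1.96 ± 0.65 (SE, siRNA arm, adjusted p = 0.0245) and -3.67 ± 0.71 (SE, mASO arm, adjusted p = 0.000949). The siRNA call ended without siSTAT3 replicate 1 (adjusted p = 0.0593) or 3 (adjusted p = 0.0748), without siCntrl replicate 1 (adjusted p = 0.0607) or 3 (adjusted p = 0.0778), and with only the compared libraries in the fit (adjusted p = 0.0502).

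Itga7, the alpha7 laminin receptor chain of muscle, fell without overlap at -0.89 ± 0.17 (SE, siRNA arm, adjusted p = 0.000983) and -0.68 ± 0.17 (SE, mASO arm, adjusted p = 0.00621), to means of 10.5 ± 2.4 CPM in siSTAT3 livers, against 19.5 ± 2.72 CPM in siCntrl livers, and 10.2 ± 1.14 CPM in mASO STAT3 livers, against 16.3 ± 1.29 CPM in mASO Scrbl livers (SD). Lama2, the laminin alpha2 chain of muscle and mesenchymal basement membranes, was 3.55, 2.08 and 2.89 CPM in siSTAT3 livers, against 6.597, 7.67 and 5.85 CPM in siCntrl livers. Lama2 had 3.05, 4.01 and 3.48 CPM in mASO STAT3 livers, against 4.98, 4.42 and 8.902 CPM in mASO Scrbl livers. It fell without overlap at -1.24 ± 0.28 (SE, siRNA arm, adjusted p = 0.00299) and -0.79 ± 0.28 (SE, mASO arm, adjusted p = 0.0335). The mASO value was -0.42 (adjusted p = 0.218) without mASO Scrbl replicate 3, the highest library, and did not pass without mASO STAT3 replicate 1 (adjusted p = 0.110) or 3 (adjusted p = 0.0817) or by limma voom (adjusted p = 0.0602). Lama4, the alpha4 laminin chain of vessels, was at -0.52 (siRNA arm, 95% interval -1.17 to 0.14, adjusted p = 0.182) and -0.35 (mASO arm, 95% interval -1.01 to 0.30, adjusted p = 0.367), and Itga10, a collagen receptor chain of cartilage, at -0.11 (siRNA arm, 95% interval -1.45 to 1.23, adjusted p = 0.904) and -0.45 (mASO arm, 95% interval -1.80 to 0.89, adjusted p = 0.588). Neither passed. Lama4 lay between 1.91 and 4.43 CPM in the 6 STAT3-group libraries, against 3.27 and 5.43 CPM in the 6 control libraries, and Itga10 lay between 0.154 and 2.03 CPM in the 6 STAT3-group libraries, against 0.613 and 1.36 CPM in the 6 control libraries.

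Stellate cell and myofibroblast markers moved with the mesenchymal subunits. Of 7, 5 fell and 1 rose in the siRNA arm, and 5 fell and 2 rose in the mASO arm, with sums of 177 to 213 CPM in siSTAT3 livers, against 765 to 1052 CPM in siCntrl livers, and of 205 to 259 CPM in mASO STAT3 livers, against 526 to 1275 CPM in mASO Scrbl livers. The markers that rose were Reln in both arms and Lrat in the mASO arm, both known from quiescent stellate cells. All 5 smooth muscle markers fell in both arms, with sums of 6.97 to 9.13 CPM in siSTAT3 livers, against 26.2 to 34.2 CPM in siCntrl livers, and of 6.702 to 10.5 CPM in mASO STAT3 livers, against 19.5 to 33.9 CPM in mASO Scrbl livers. Of 7 endothelial markers, 4 fell in each arm and 1 rose in the mASO arm, with sums of 97.5 to 164 CPM in siSTAT3 livers, against 142 to 172 CPM in siCntrl livers, and of 99.7 to 172 CPM in mASO STAT3 livers, against 138 to 163 CPM in mASO Scrbl livers. The part of these cells in the change of the subunits was not tested.

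Among broad subunits, the beta1 chain and the gamma1 chain fell in both arms, with little spread within the control groups. Itgb1 was 157, 116 and 164 CPM in siSTAT3 livers, against 332, 327 and 322 CPM in siCntrl livers. Itgb1 had 149, 159 and 168 CPM in mASO STAT3 livers, against 299.7, 314 and 319.5 CPM in mASO Scrbl livers. The control libraries lay close together and well above the STAT3-group libraries. Itgb1 fell at -1.17 ± 0.14 (SE, siRNA arm, adjusted p = 1.7e-05) and -0.97 ± 0.14 (SE, mASO arm, adjusted p = 7.63e-05). Lamc1, the gamma1 chain of most laminins, was 19.7, 17.7 and 24.4 CPM in siSTAT3 livers, against 59.03, 55.7 and 57.5 CPM in siCntrl livers. Lamc1 had 21.3, 20.7 and 20.5 CPM in mASO STAT3 livers, against 57.4, 64.8 and 62.4 CPM in mASO Scrbl livers. It fell without overlap at -1.48 ± 0.13 (SE, siRNA arm, adjusted p = 1.18e-06) and -1.56 ± 0.13 (SE, mASO arm, adjusted p = 7.77e-07).

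Itgav, the alphav chain of the vitronectin receptors that activate TGF-beta, was 18.4, 15.7 and 17.4 CPM in siSTAT3 livers, against 42.2, 36.8 and 38.9 CPM in siCntrl livers. Itgav had 18.2, 15.4 and 19.5 CPM in mASO STAT3 livers, against 43.9, 47.4 and 40.3 CPM in mASO Scrbl livers. It did not overlap and fell at -1.20 ± 0.13 (SE, siRNA arm, adjusted p = 8.46e-06) and -1.31 ± 0.13 (SE, mASO arm, adjusted p = 3.7e-06). Its partner Itgb5 was 98.8, 109.7 and 97.7 CPM in siSTAT3 livers, against 133, 131 and 130.5 CPM in siCntrl livers, without overlap. Itgb5 had 103, 101 and 97.3 CPM in mASO STAT3 livers, against 124, 101 and 116 CPM in mASO Scrbl livers, with overlap. Itgb5 fell in the siRNA arm by a small amount at -0.37 ± 0.11 (SE, adjusted p = 0.0157), a call that ended without siSTAT3 replicate 1 (-0.35, adjusted p = 0.0563) or 3 (-0.34, adjusted p = 0.0560), and was at -0.18 (mASO arm, 95% interval -0.42 to 0.06, adjusted p = 0.211). Itgb8, another alphav partner in TGF-beta activation, was low and fell at -2.01 ± 0.48 (SE, siRNA arm, adjusted p = 0.00393) and -1.41 ± 0.48 (SE, mASO arm, adjusted p = 0.029), with means of 0.219 ± 0.0825 CPM in siSTAT3 livers, against 0.876 ± 0.2901 CPM in siCntrl livers, and 0.176 ± 0.0185 CPM in mASO STAT3 livers, against 0.471 ± 0.157 CPM in mASO Scrbl livers (SD). Its mASO call ended on leaving out any 1 of 5 libraries of that arm, all but mASO Scrbl replicate 3, with adjusted p from 0.0523 to 0.112, by limma voom (adjusted p = 0.0560) and with no filter (adjusted p = 0.0546).

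Itga9, the alpha9 chain that binds tenascin C and osteopontin, was 13.2, 15.9 and 16.4 CPM in siSTAT3 livers, against 36.4, 47.3 and 47.8 CPM in siCntrl livers. Itga9 had 23.6, 24.5 and 14.4 CPM in mASO STAT3 livers, against 34.3, 29.6 and 36.96 CPM in mASO Scrbl livers. It fell without overlap at -1.53 ± 0.19 (SE, siRNA arm, adjusted p = 3.13e-05) and -0.69 ± 0.19 (SE, mASO arm, adjusted p = 0.00952). Lamb1, the beta1 chain of laminin, was 9.84, 6.66 and 9.58 CPM in siSTAT3 livers, against 19.2, 27.2 and 23.7 CPM in siCntrl livers. Lamb1 had 12.97, 12.8 and 10.8 CPM in mASO STAT3 livers, against 15.2, 13.7 and 23.9 CPM in mASO Scrbl livers. It fell without overlap at -1.43 ± 0.23 (SE, siRNA arm, adjusted p = 0.000184) and did not pass at -0.53 (mASO arm, 95% interval -1.004 to -0.06, adjusted p = 0.064), where its groups did not overlap either. That value was -0.25 (adjusted p = 0.353) without mASO Scrbl replicate 3. It passed without mASO Scrbl replicate 2 (-0.69, adjusted p = 0.0318), with no filter (-0.55, adjusted p = 0.0495) and with library totals (-1.11, adjusted p = 0.00144). Lamb2, the beta2 chain, did not pass at -0.56 (siRNA arm, 95% interval -1.15 to 0.03, adjusted p = 0.114) and -0.17 (mASO arm, 95% interval -0.76 to 0.42, adjusted p = 0.645). With library totals Lamb2 passed as lower, at -1.07 (siRNA arm, adjusted p = 0.00845) and -0.73 (mASO arm, adjusted p = 0.048). It lay between 6.199 and 9.81 CPM in the 6 STAT3-group libraries, against 6.53 and 13.4 CPM in the 6 control libraries, with overlap in both arms.

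Lamc3, the gamma3 chain, fell in the siRNA arm at -1.63 ± 0.57 (SE, adjusted p = 0.0323) and was at -0.27 (mASO arm, 95% interval -1.47 to 0.94, adjusted p = 0.73). Its libraries were spread, with 2.38, 1.8 and 1.11 CPM in siSTAT3 livers, against 5.34, 2.82 and 8.27 CPM in siCntrl livers. Lamc3 had 0.664, 3.23 and 1.17 CPM in mASO STAT3 livers, against 1.74, 1.24 and 3.16 CPM in mASO Scrbl livers. The siRNA call ended without siSTAT3 replicate 2 (adjusted p = 0.0863) or 3 (adjusted p = 0.109) and without siCntrl replicate 1 (adjusted p = 0.0581) or 3 (adjusted p = 0.129), and with no filter (adjusted p = 0.0617).

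Ratios of 2 members within a library do not depend on how libraries are scaled, and these pairs were chosen after the values had been seen, so they are given with no test. The ratio of Itgam to Itgal counts was 0.175, 0.1005 and 0.0982 in siSTAT3 livers, against 1.78, 1.195 and 1.34 in siCntrl livers, and 0.152, 0.156 and 0.0966 in mASO STAT3 livers, against 0.833, 1.07 and 1.09 in mASO Scrbl livers. It differed by -3.56 and -2.91 on the log2 scale with no overlap. Itgam to Itgb2 differed by -1.48 and -1.43, and Itgax to Itgam, its neighbour, by 2.19 and 1.59, both without overlap. Itgal to Itgb2 differed the other way, by 2.08 and 1.48, so against their common beta chain Itgam counts were lower and Itgal counts higher in the STAT3 groups. The ratio of Itgb2 to Itgb1 was 0.0532, 0.0478 and 0.06297 in siSTAT3 livers, against 0.0546, 0.0956 and 0.0792 in siCntrl livers, and 0.066, 0.0735 and 0.0505 in mASO STAT3 livers, against 0.0753, 0.0478 and 0.0613 in mASO Scrbl livers, and overlapped in both arms.

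Among epithelial and broad pairs, Itga6 to Itgb4 was 2.8, 1.53 and 4.37 in siSTAT3 livers, against 10.3, 8.25 and 7.54 in siCntrl livers, and 2.9, 2.02 and 2.54 in mASO STAT3 livers, against 17.9, 15.3 and 6.98 in mASO Scrbl livers. It was lower in every STAT3-group library than in any library of its control, with differences of -1.70 and -2.33 on the log2 scale. Itga3 to Itgb1 differed by -0.81 and -0.94, and Itgav to Itgb5 by -0.83 and -1.14, without overlap. Lama1 to Lama5 was 0.699, 0.958 and 1.03 in siSTAT3 livers, against 0.307, 0.2104 and 0.268 in siCntrl livers, and 0.974, 0.809 and 0.624 in mASO STAT3 livers, against 0.344, 0.355 and 0.225 in mASO Scrbl livers, higher in every STAT3-group library. Lama3 to Lamb3 was 0.1304, 0.0419 and 0.1099 in siSTAT3 livers, against 0.0104, 0.0111 and 0.0196 in siCntrl livers, and 0.0904, 0.136 and 0.0984 in mASO STAT3 livers, against 0.0108, 0.00548 and 0.0404 in mASO Scrbl livers, without overlap in either arm. Lamc1 to Lamb1 overlapped in the siRNA arm, where both chains fell, and differed by -1.07 without overlap in the mASO arm.

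**Figure D3:**
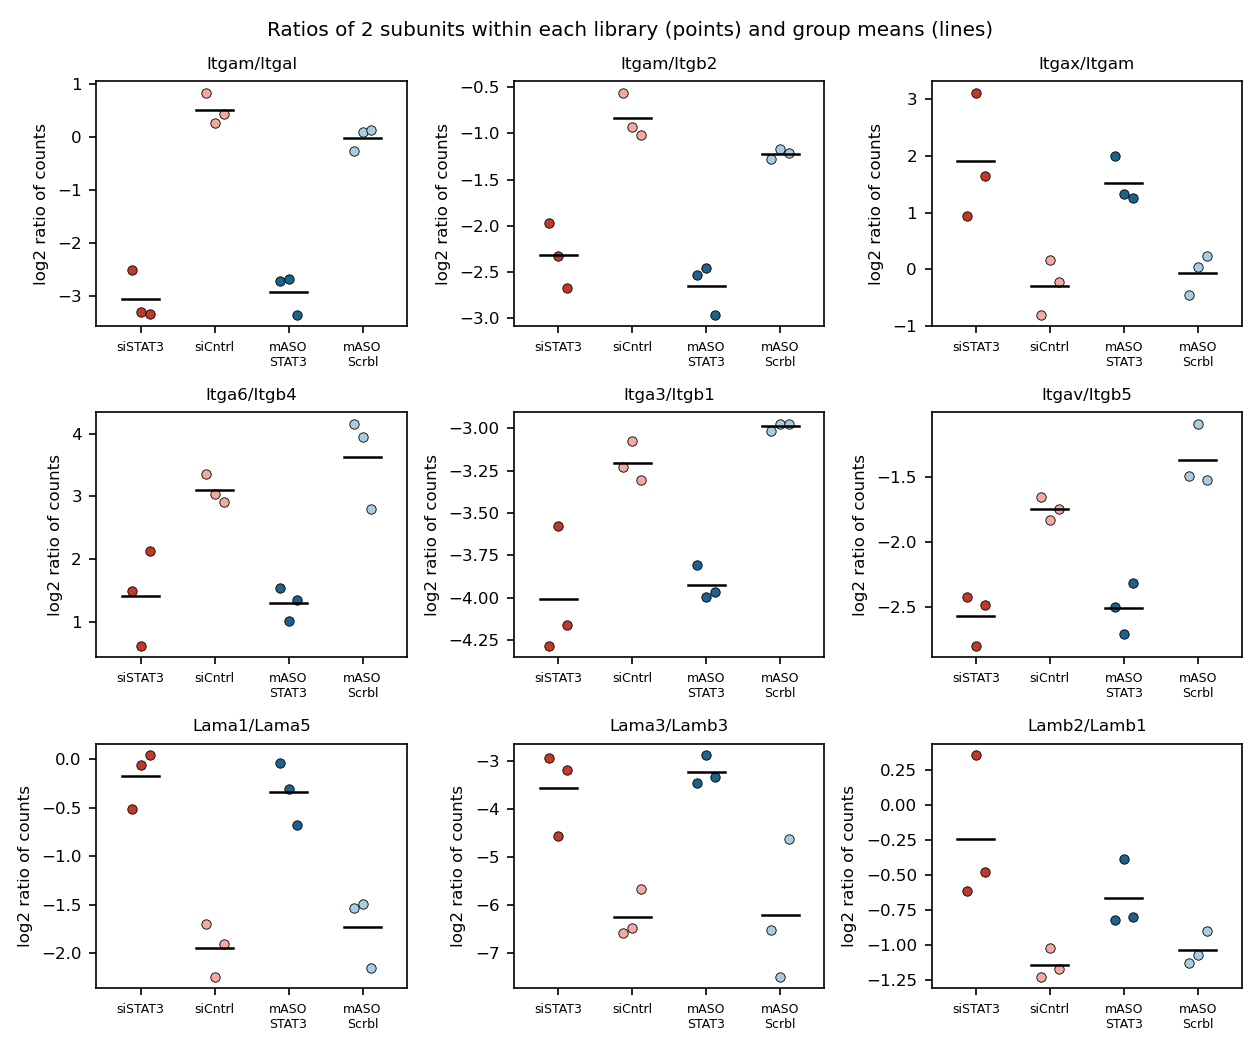
Ratio of the counts of 2 subunits within each library (y axis, log2) in siSTAT3, siCntrl, mASO STAT3 and mASO Scrbl livers (x axis); points are libraries and lines group means. Itgam over Itgal lies far below the controls in every STAT3-group library. The 9 pairs drawn were picked after the values had been seen, and each separates each STAT3 group from its control. Pairs computed but not drawn include some that overlapped, such as Itgb2 over Itgb1 in both arms. Itga6 over Itga3, Lamc1 over Lamb1 and Itga1 over Itga5 overlapped in the siRNA arm.

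The makeup of the subunits by class also differed between groups. Among integrin alpha chains, the epithelial ones held 7.86, 9.16 and 9.44% of the summed CPM per kb in siSTAT3 livers, against 20.3, 18.2 and 15.4% in siCntrl livers. They held 8.598, 7.68 and 9.63% in mASO STAT3 livers, against 22.4, 22.1 and 21.2% in mASO Scrbl livers, and neither arm overlapped. Mesenchymal alpha chains held 56.5, 44.4 and 47.5% in siSTAT3 livers, against 42.6, 37.4 and 44.5% in siCntrl livers. They held 51.6, 55.02 and 55.4% in mASO STAT3 livers, against 40.3, 42.8 and 42.6% in mASO Scrbl livers. So the mesenchymal share was higher without overlap in the mASO arm and overlapped in the siRNA arm. Itga5 was the largest part of it, at 8.69 CPM per kb in mASO STAT3 livers, against 9.57 in mASO Scrbl livers. All 18 alpha chains summed to 23.8 CPM per kb in mASO STAT3 livers, against 38.8 in mASO Scrbl livers. Itga3 was the largest part of the epithelial share, at 1.83 CPM per kb in mASO STAT3 livers, against 6.88 in mASO Scrbl livers. These shares mainly follow 1 gene each and do not show how a class moved as a whole. The leukocyte share was 16.5, 23.2 and 21.7% in siSTAT3 livers, against 13.6, 21.6 and 15.4% in siCntrl livers, with overlap, and 17.2, 16.95 and 14.97% in mASO STAT3 livers, against 13.8, 11.04 and 13.2% in mASO Scrbl livers, without it. These are descriptions, and 3 against 3 libraries cannot reach an exact permutation p below 0.1.

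The summed level of laminin chains was lower on average in the STAT3 groups at each position of the cross. The 5 alpha chains summed to 1.28 ± 0.136 CPM per kb in siSTAT3 livers, against 1.99 ± 0.215 in siCntrl livers, and 1.41 ± 0.236 in mASO STAT3 livers, against 1.88 ± 0.336 in mASO Scrbl livers (mean ± SD, n = 3). The beta chains summed to 2.63 ± 0.164 CPM per kb in siSTAT3 livers, against 6.695 ± 1.15 in siCntrl livers, and to 3.22 ± 0.3302 in mASO STAT3 livers, against 5.17 ± 0.732 in mASO Scrbl livers. The gamma chains summed to 2.86 ± 0.314 CPM per kb in siSTAT3 livers, against 8.07 ± 0.588 in siCntrl livers, and to 2.82 ± 0.213 in mASO STAT3 livers, against 8.06 ± 0.5398 in mASO Scrbl livers. Lamc1 alone averaged 2.49 CPM per kb in siSTAT3, 6.94 in siCntrl, 2.52 in mASO STAT3 and 7.44 in mASO Scrbl livers. The gamma sum therefore mainly follows this gene. No sum overlapped between a STAT3 group and its control except that of the alpha chains in the mASO arm. The alpha chains of integrins that pair with Itgb1 summed to 16.05 ± 1.26 CPM per kb in siSTAT3 livers, against 35.2 ± 1.38 in siCntrl livers, and to 19.8 ± 1.75 in mASO STAT3 livers, against 33.5 ± 0.984 in mASO Scrbl livers.

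**Figure D4:**
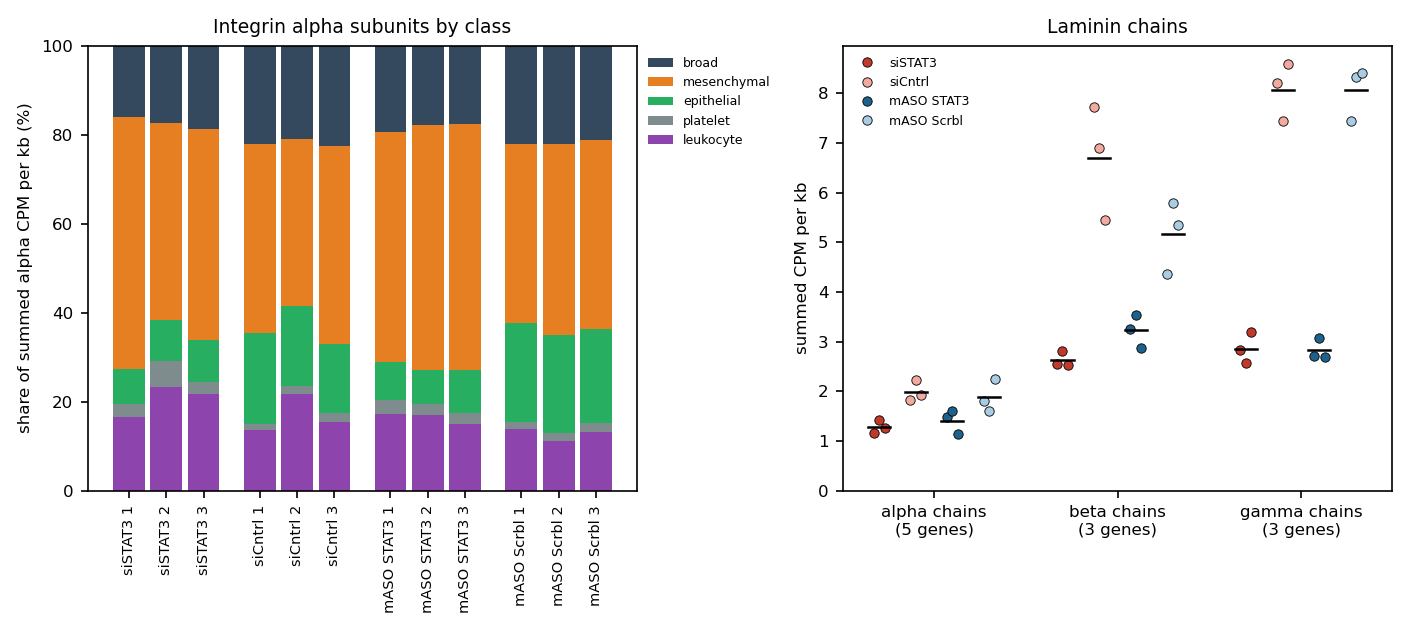
Left, share (y axis, % of the summed CPM per kb) of each class among the 18 integrin alpha genes in each library (x axis); right, summed CPM per kb (y axis) of laminin alpha, beta and gamma chains, with points for libraries and lines for group means. The epithelial share is at most 9.63% in the STAT3-group libraries and at least 15.4% in the control libraries, and gamma chain sums are far apart.

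The arms were then compared with each other. No member passed the test of the difference between the arms in edgeR, DESeq2 or limma voom, where 0.00636% of all genes passed in edgeR, and 4 members had an unadjusted p under 0.05. Itga5, Itga9 and Lamb1 were among them, with differences (mASO arm minus siRNA arm) of 0.56, 0.84 and 0.89 on the log2 scale and adjusted p of 0.615 or more. Hence the 6 members that passed in the siRNA arm alone are not shown to differ between arms. Between the controls (mASO Scrbl minus siCntrl), 0.0127% of all genes passed in edgeR, no member passed in any of the 3 tools, and Itgam (-0.76) and Lamc3 (-1.42) had an unadjusted p under 0.05. Between the STAT3 groups (mASO STAT3 minus siSTAT3), 0% of all genes and no member passed in edgeR, no member passed in DESeq2 or limma voom, and 5 members had an unadjusted p under 0.05. Among those were Itga5 at 0.42 and Itga9 at 0.46, with adjusted p of 0.753 and 0.766.

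The pathway lists below are given with the siRNA arm's log2 fold change before that of the mASO arm, and each gene named as changed passed the test in both arms except Plec, whose arms are given apart. Among all genes tested, 23.4% fell and 22.4% rose in the siRNA arm, and 22.5% fell and 21.3% rose in the mASO arm. In a list of 4 or 5 genes, 1 gene in a direction is near these shares. Of the basement membrane partners of laminin, 8 of 15 tested fell and 2 rose in the siRNA arm, and 9 fell and 3 rose in the mASO arm. Nid1, the nidogen that links laminin to collagen IV, was 13.3 ± 5.11 CPM in siSTAT3 livers, against 272 ± 61.5 CPM in siCntrl livers, and 17.3 ± 1.78 CPM in mASO STAT3 livers, against 270.5 ± 57.9 CPM in mASO Scrbl livers. Col4a1 and Col4a2, the collagen IV chains of most basement membranes, fell, with log2 fold changes of -2.99 and -2.42 (siRNA arm), and of -2.72 and -2.35 (mASO arm). Col18a1, which hepatocytes express strongly, went the other way at 1.49 and 1.60, and was 1156 ± 34.9 CPM in siSTAT3 livers, against 412 ± 51.9 CPM in siCntrl livers, and 1067 ± 103 CPM in mASO STAT3 livers, against 352 ± 48.3 CPM in mASO Scrbl livers. The list median was -0.87 and -0.60.

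Of the other integrin ligands, 11 of 16 tested fell and 1 rose in the siRNA arm, and 10 fell and 1 rose in the mASO arm. Thbs1 (thrombospondin 1) fell, with log2 changes of -5.81 and -5.27, Tnc (tenascin C) with -3.80 and -2.95, and Fbn1 (fibrillin 1) with -2.62 and -2.01. Cdh1, the E-cadherin to which alphaE binds, changed by -2.33 and -2.27. The one that rose was Vtn, the vitronectin that hepatocytes secrete (0.72 and 1.08), a name chosen after its values were seen. The list median was -1.48 and -1.22.

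Of 27 tested integrin activators and adhesion adaptors, 17 fell and 2 rose in the siRNA arm, and 14 fell and 2 rose in the mASO arm. Flna, the filamin that binds beta tails and actin, changed by -2.53 and -2.22, and Vasp, an actin polymerisation factor, by -1.71 and -1.58. The paralogs Lims1 and Lims2, each part of a complex with the integrin-linked kinase, went opposite ways. Lims1 was 12.9 ± 1.79 CPM in siSTAT3 livers, against 27.6 ± 3.16 CPM in siCntrl livers, and 13.9 ± 1.33 CPM in mASO STAT3 livers, against 33.1 ± 3.39 CPM in mASO Scrbl livers, while Lims2 was 74.5 ± 6.54 CPM in siSTAT3 livers, against 44.99 ± 4.87 CPM in siCntrl livers, and 63.6 ± 2.74 CPM in mASO STAT3 livers, against 38.3 ± 1.11 CPM in mASO Scrbl livers. The list median was -0.57 and -0.52.

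Of 9 listed genes of TGF-beta ligands, the latent TGF-beta binding family and surface carriers of latent TGF-beta, 8 fell in the siRNA arm and 4 in the mASO arm, and none rose. Whether alphav integrins act on each of them was not tested. Tgfb3 changed by -2.89 and -2.46, and Ltbp2, a matrix protein of the latent TGF-beta binding family, by -3.62 and -2.42. Lrrc32, which displays latent TGF-beta on the cell surface, changed by -0.99 and -0.68, and Tgfb2 by -1.77 and -2.03. Of 5 negative regulators of integrins, 1 rose and 2 fell in the siRNA arm, and 1 rose and 1 fell in the mASO arm. Sharpin, which holds beta1 integrins inactive, rose by 0.73 and 0.48 on the log2 scale, and Filip1l changed by -1.38 and -0.73. Of 4 hemidesmosome partners of alpha6 beta4, 1 rose and 1 fell in the siRNA arm and 1 fell in the mASO arm. Cd151, the tetraspanin that binds laminin-binding integrins, changed by -0.97 and -1.09. Plec, the plectin that ties hemidesmosomes to keratin filaments, rose in the siRNA arm by 0.56 and did not pass in the mASO arm at 0.02.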

How the data were processed

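Libraries were made from liver RNA with a stranded mRNA kit, per the labels. The values used here are raw read counts per gene in 12 libraries, as the authors deposited them. A second deposited table equals these counts divided by 1 factor per library and was not used. The submitters' processing notes name TopHat and Cufflinks, with no version or role. The sources used here do not name the counting tool, build, annotation or strand setting. Reads of overlapping genes on opposite strands may therefore not be told apart.

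Counts were scaled by TMM in edgeR 4.0.16 (R 4.3.3), genes were kept by filterByExpr by group (minimum count 10, minimum total 15), and 15720 of 25540 genes were tested in 1 fit of all 12 libraries with the robust quasi-likelihood F test (8 residual degrees of freedom, common biological coefficient of variation 0.247). Each contrast was adjusted over all tested genes by the Benjamini-Hochberg method, with a threshold of 0.05. The procedure was tested on simulated data in which few genes changed, evenly up and down. That run does not cover changes as widespread as those seen here. The siRNA arm is siSTAT3 minus siCntrl and the mASO arm mASO STAT3 minus mASO Scrbl. DESeq2 1.42.0, limma voom (limma 3.58.1), other scalings, other filters, a replicate block and leaving out each library were tried. Libraries of a group differed from each other by far more than counting error, with a chi-square per degree of freedom of 49.1 or more. In 4 groups of 3, precision is limited by the number of libraries rather than by the 39844158 or more counts in each.

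Exon lengths came from GENCODE vM21, and all 37 members had a length. Members are named, except that 1 member and 1 marker gene are counted but not reported here by name. From each pathway list up to 4 genes with the smallest p in an arm are named, and from marker lists the sums and the defining markers. Tns2, Adgre1 and Jchain were found under older symbols through RefSeq synonyms. Members, classes and lists were chosen with earlier results of these data known, so they give no independent support.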

Additional observations from a re-analysis of the deposited data

How the results depend on the processing

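Of 969 values of single members under alternatives, 882 kept their direction and side of the threshold, 44 lost a call, 22 gained one and 21 changed sign. In the siRNA arm 18 of 23 calls, and in the mASO arm 14 of 19, held under every alternative that tested them.

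With library totals, members that rose in the mASO arm numbered 0 and those that fell 26, and the sign changed for Itga2b (-0.44), Itga4 (-0.44), Itgal (-0.11) and Itgb7 (-0.46) in the siRNA arm and for Itgal (-0.049) and Lama1 (-0.068) in the mASO arm. The median of all genes then lay at -0.53 in the siRNA arm and -0.63 in the mASO arm. Members that passed as lower with library totals and not with TMM were Itgax, Itgb4, Lama4 and Lamb2 in the siRNA arm. In the mASO arm they were Itga5, Itga8, Itgax, Itgb3, Itgb4, Itgb5, Lama4, Lamb1 and Lamb2. Library totals moved called values by more than 1.5 times for Itga1, Itga5, Itga7, Itgb3 and Itgb5 in the siRNA arm and for Itga1, Itga4, Itga7, Itga9, Itgb1, Itgb2, Lama2, Lama3 and Lama5 in the mASO arm. DESeq2's Wald test called 1 member higher in the siRNA arm, and the stricter filter 1 in the mASO arm. For the differences between arms, between controls and between STAT3 groups, DESeq2's Wald test called 62, 79 and 79 genes and no filter called 3, 7 and 6, against 1, 2 and 0. The stricter filter called 2 genes for the difference of the arms, and library totals 5 between controls. The cause was not tested.

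Leaving out 1 library gave 0 to 1 members higher in the siRNA arm, 0 to 2 in the mASO arm, and 0 to 8, 0 to 13 and 0 to 5 genes for those 3 differences. It changed the sign of values that had not passed. These ran from -1.40 to 0.38 for Itga10, -0.37 to 0.28 for Itga2b, -0.31 to 0.34 for Itga4 and -0.23 to 0.34 for Itgb7 in the siRNA arm, and from -0.24 to 0.036 for Itga2b, -0.37 to 0.21 for Lamb2 and -1.15 to 0.19 for Lamc3 in the mASO arm.

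Same-numbered libraries had correlations of deviations of -0.11 to 0.187, and replicate numbers were treated as names that pair nothing. With a replicate block, 22 members fell in the siRNA arm and 16 in the mASO arm, and 0 genes passed the difference of the arms. The calls of Lamc3 (siRNA arm, adjusted p = 0.0622) and Lama2 (mASO arm, adjusted p = 0.060) ended.

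Members under 1 CPM rest on few counts, and 3 libraries per group limit every estimate.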
